A study of Homo sapiens with 17 samples.

Results

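The mitochondrial ribosomal proteins were described here as every protein-coding gene whose symbol starts with MRPL or MRPS, which gave 78 of the 60662 genes in the count table and 78 of its 19930 protein-coding genes. Of these, 49 had an MRPL name and 29 an MRPS name. By their place in the ribosome, 51 encode proteins of the large subunit and 26 proteins of the small subunit. MRPS30 and MRPS18A carry a small-subunit name but sit in the large subunit. MRPS36 was placed in neither, because its product is known as a subunit of the 2-oxoglutarate dehydrogenase complex.

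The mitochondrial ribosome translates the few messenger RNAs of the mitochondrial genome, which encode core subunits of the respiratory chain and of ATP synthase. Its ribosomal RNAs come from mitochondrial DNA, while all of its proteins are made from nuclear genes and imported, so the nucleus has to supply each of them. Some of these proteins have a counterpart in bacterial ribosomes, and the others were added in the mitochondrial lineage. In the endometrium, progesterone turns the lining to its secretory state before implantation.

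RNA was sequenced from Ishikawa cells, an established line of human endometrial adenocarcinoma that is used as a model of the endometrial epithelium. All cultures were kept in DMEM/F12 with charcoal-stripped serum, and the treatments lasted 24 h. Control cultures (n = 3) had medium only, vehicle control cultures (n = 3) are labelled as Nap plus 70% ethanol, P4 cultures (n = 3) as Nap plus progesterone (P4), and Nap only cultures (n = 2) as Nap without either. The labels do not spell out Nap and name ethanol for the vehicle control alone, so whether the P4 cultures also contained ethanol is not known. The sources give different P4 concentrations, and none is quoted here. A single cancer line was used. The labels call the replicates biological without saying how the cultures were separated, so p-values measure the spread between these cultures, which may be partly technical. Another 6 libraries are labelled with recombinant PSAT1. Their titles and column names contradict each other on P4, and they entered no comparison.

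The 11 libraries held 4999521 to 19704493 counts, and the shallowest was vehicle control replicate 1. Replicates of a group differed by more than sampling noise, with a chi-square per degree of freedom of 1.54 to 20.6, so none was a copy of another. The labelled epithelial identity was checked against its markers. EPCAM, KRT8, KRT18, KRT19 and CDH1 were each present at 55.7 to 487 CPM (counts scaled to library size, with TMM normalization). Of the endothelial markers, CDH5 was at 0 in every library, PECAM1 had at most 1 count, and VWF had 2 to 22 counts (0.172 to 1.49 CPM). The leukocyte markers PTPRC, CD3E and CD68 reached at most 1.03 CPM. Of the stromal markers, COL3A1 was at 41.8 to 131 CPM and COL1A1 at 20.4 to 32.7 CPM, while THY1, PDGFRB and DCN reached at most 1.40 CPM.

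The members' mean level, per kilobase of exon, ran from 0.0283 to 65.4 RPKM over the 11 libraries, with a median of 10.5 RPKM. MRPL51, a large-subunit protein without a bacterial counterpart, was the most abundant at 65.4 RPKM, followed by the small-subunit protein MRPS35 at 48.6 RPKM and the large-subunit protein MRPL3 at 39.7 RPKM. At the other end, MRPL53 had 0.0283 RPKM and no more than 1 count in any library, and MRPS24 had 0.214 RPKM and at most 15 counts. MRPL53 passed the filter on low counts in none of the 6 comparisons, and MRPS24 passed it only in P4 against Nap only and in Nap only against control. The other 76 members were tested throughout. MRPL23 was the lowest of the tested members at 0.502 RPKM. Part of the exons of 16 members is shared with other annotated genes on the same strand, 45.2% with CCDC142 for MRPL53, 23.2% with the readthrough gene URGCP-MRPS24 for MRPS24 and 68.2% with AC139530.2 for MRPL12, whose product binds the mitochondrial RNA polymerase. The share was 37.5% for MRPL38, 35.8% for MRPS28 and 27.00% for MRPS17, and 0.716% to 21.1% for the other 10. Whether shared reads were dropped in counting was not tested, so the levels of these 16 genes are uncertain. On either strand, 41 members share part of their exons with other genes, MRPL51 among them at 31.3%. The strand setting of the counting is not given, so the levels of these members may be affected too.

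The promoters of the members were read from RefSeq windows of GRCh38.p14 that run from 250 bases before to 50 bases after the start, which were found for 69 of the 78 genes. They are shown because several factors known to bind promoters of mitochondrial genes have short recognition sequences. Whether these sequences have a part in the differences below was not tested. The YY1 motif AAGATGGC was found, on either strand, in 20 of the 69 windows (28.99%), against 828 of all 27305 promoter windows (3.03%) and 553 of the 10230 windows of tested protein-coding genes (5.41%). Close to the start it stood in members of both subunits, printed 5′ to 3′ along the gene with the match in capitals.
MRPL20, chr1:1407260-1407289, minus strand: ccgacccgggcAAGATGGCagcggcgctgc
MRPL51, chr12:6493223-6493252, minus strand: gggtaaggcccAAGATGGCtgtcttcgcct
MRPS10, chr6:42217834-42217863, minus strand: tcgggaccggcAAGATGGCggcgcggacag
MRPL38, chr17:75904860-75904889, minus strand: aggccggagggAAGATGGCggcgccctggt
MRPS18B, chr6:30617852-30617881, plus strand: gggcgtacgtcAAGATGGCggcgtctgtat
The motif began 16 bases into the transcript in MRPL20, 22 in MRPL51, 10 in MRPS10, 7 in MRPL38 and 24 in MRPS18B, counting the first transcribed base as 1.

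The ETS motif CCGGAAG, the recognition sequence of GABPA and related factors, was found in 29 of the 69 windows (42.0%), against 10.7% of all windows and 19.2% of those of tested protein-coding genes. It can overlap the YY1 motif by the letters AAG. The matches below are the ones nearest to the start in 2 members that rose with P4 and 2 that fell, with CTTCCGG marking a match on the opposite strand.
MRPL58, chr17:75012651-75012680, plus strand: ggaagcgcccgCCGGAAGcagtcgcaagac
MRPS22, chr3:139343988-139344017, plus strand: cctcccaaccaCTTCCGGcgcaagtggctt
MRPL16, chr11:59810766-59810795, minus strand: agtgaacacaaCTTCCGGccccactgagcg
MRPS12, chr19:38930928-38930957, plus strand: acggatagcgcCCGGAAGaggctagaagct
Of the genes printed above, MRPL20, MRPS10, MRPL51, MRPL38 and MRPS12 held both motifs, as did members not printed. In MRPL20 and MRPS10 the ETS match nearest the start was at −21 and −22 and the YY1 match at 16 and 10. In MRPL51, MRPL38 and MRPS12 that ETS match was at −104, −208 and −5 and the YY1 match at 22, 7 and −212. Other motifs stood in similar or lower shares of the members' windows than of the windows of tested protein-coding genes. The SP motif GGGCGG stood in 60.9% of members' windows against 71.0%, the NFY motif CCAAT in 28.99% against 36.7%, the E-box CACGTG in 8.70% against 10.0%, the NRF1 core CGCATGCG in 4.35% against 3.84%, and the ATF4 composite motif TGATGNAA in 1.45%, which was MRPL55 alone, against 1.71%. These are matches of letters, and binding was not measured.

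Vehicle control cultures were first compared with controls, which asks what the vehicle did to these genes. The mitochondrial ribosomal proteins were lower as a group in vehicle control cultures. The summed level of the 78 genes was 3095, 3091 and 3068 CPM in the controls and 2556, 2531 and 2505 CPM in the vehicle controls, so every vehicle control lay below every control, and the mean came to 82.0% of the control mean. Of 76 members tested, 43 were called lower (56.6%) and 0 higher, in edgeR's quasi-likelihood test at a Benjamini-Hochberg adjusted p under 0.05. Among all 16673 genes tested, 10.7% were called lower and 11.9% higher. At an unadjusted p under 0.05, 59 members were lower and 1 higher, and DESeq2 called 33 lower and 0 higher.

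**Figure D1:**
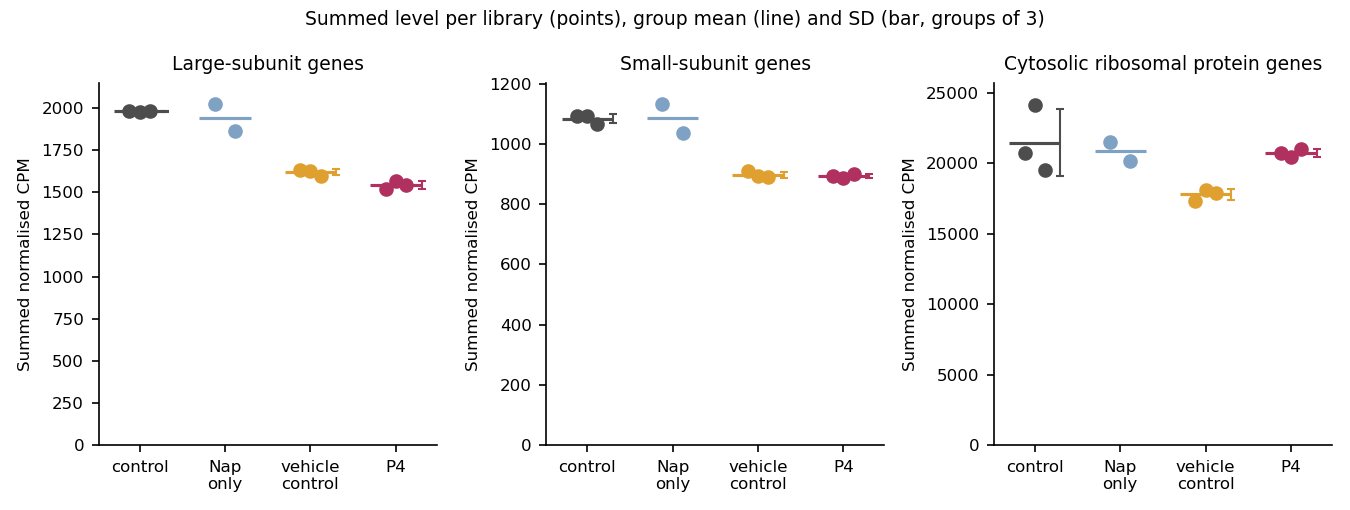
Summed normalised CPM of large-subunit, small-subunit and cytosolic ribosomal protein genes in each library of the 4 groups (points), with the group mean (line) and the SD for groups of 3 (bar). Vehicle control and P4 libraries lie below every control and Nap only library for both subunits, with vehicle control means at 81.8% and 82.8% of the control mean, while the cytosolic ribosomal protein genes of the P4 libraries lie near the control mean at 96.6%.

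The median log2 fold change of the members was −0.29, against −0.0089 for all genes, and 75 of the 76 had a negative value. The groups did not overlap in 59 members, all lower (77.6%), and in 1 member, higher. Over all genes, 19.6% did not overlap and were lower and 19.4% did not overlap and were higher. The one member with a positive value was MRPL12, one of the genes of shared exons, at 0.80 (adjusted p = 0.0905), with 1.24, 1.09 and 0.446 CPM in controls and 2.30, 1.48 and 1.61 CPM in vehicle controls.

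**Figure D2:**
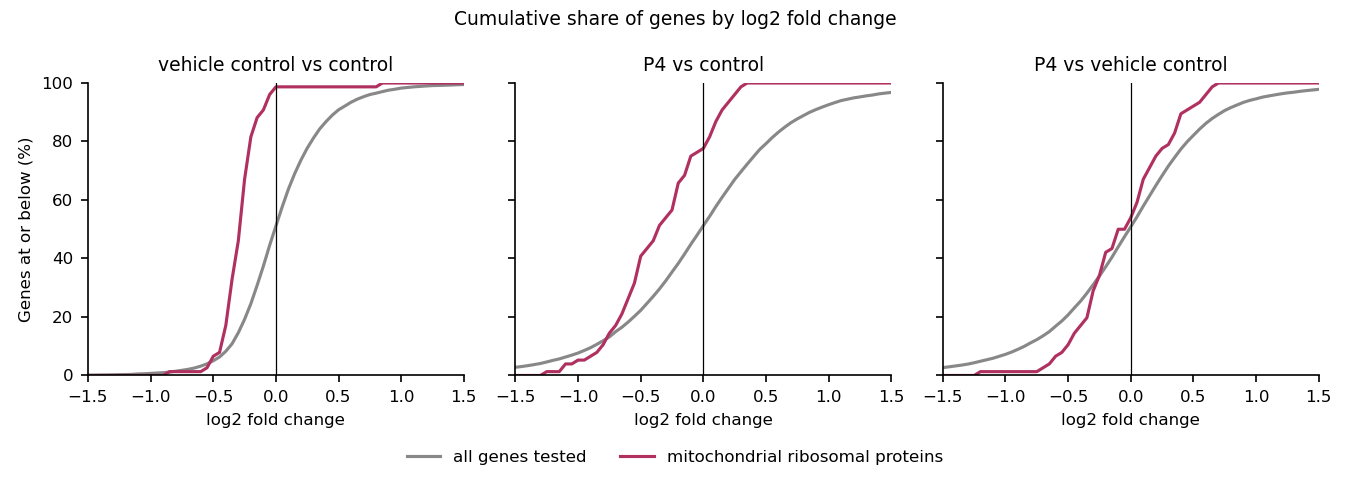
Cumulative share of genes (%) by log2 fold change in 3 comparisons, for the tested mitochondrial ribosomal protein genes (red) and all genes tested (grey). The members' curve is shifted left and is steep in vehicle control against control, with a median of −0.29. It is shifted left and broad in P4 against control, with a median of −0.36. In P4 against vehicle control it crosses the curve of all genes, and the members' median is −0.074.

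Both subunits took part. The vehicle control calls comprised 26 of 50 large-subunit and 16 of 25 small-subunit members, with medians of −0.28 and −0.30, together with MRPS36. Proteins with a bacterial counterpart gave 24 of 45 and mitochondria-specific ones 18 of 30. The 3 smallest adjusted p-values belonged to MRPS18B, MRPL16 and MRPL35. MRPS18B, a small-subunit protein of the MRPS18 family, had 43.00, 44.6 and 40.9 CPM in controls and 32.2, 30.5 and 28.4 CPM in vehicle controls. The groups were well apart, and the log2 fold change was −0.51 ± 0.087 (SE; adjusted p = 3.23e-04, edgeR). MRPL16, a conserved protein of the large subunit core, fell from 30.4, 30.8 and 27.7 CPM to 19.4, 22.3 and 20.1 CPM, a log2 fold change of −0.52 ± 0.098 (adjusted p = 8.06e-04). MRPL35, another conserved large-subunit protein, fell from 56.9, 56.7 and 61.7 CPM to 44.1, 44.5 and 43.6 CPM (−0.40 ± 0.078, adjusted p = 9.06e-04). In all 3 genes, the lowest control exceeded the highest vehicle control. The 3 MRPS18 paralogues were each called lower, MRPS18C at −0.39 and MRPS18A at −0.29 on the log2 scale. MRPS36 was also lower, at −0.55 (adjusted p = 0.00108).

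The difference was not limited to mitochondrial ribosomes. Of 84 cytosolic ribosomal protein genes tested, 53 were called lower and 2 higher, with a median of −0.28. The members have short transcripts, with a median length of 1034 bases against 1896 for other protein-coding genes tested, and the fold change between vehicle control and control rose with transcript length across protein-coding genes (Spearman's rho = 0.238 across genes, which are not independent). Other protein-coding genes with a length in the middle range of the members, 795 to 1401 bases, had a median of −0.071, and 16.5% of them were called lower. With a correction for transcript length and GC content in the fit, 38 members were called lower and 0 higher, with a median of −0.24, and 29 of the 43 calls made without the correction were kept. Leaving out vehicle control replicate 2 or replicate 3 reduced the calls to 25 lower in each case.

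Between Nap only and control cultures no member passed the test, and vehicle controls were lower than either. The comparisons of Nap only with control and with vehicle control were added after the data had been seen. Summed levels were 3175 and 2916 CPM in the 2 Nap only libraries, which spread around the control values. Between Nap only and control, edgeR called 0 of 77 members in either direction, against 0% of all 17166 genes tested. At an unadjusted p under 0.05 there were 0 members and 1.26% of all genes. DESeq2 called 0 members. Same-numbered libraries of these 2 groups correlated, at 0.283 and 0.335, and the main fit did not use this. With a replicate block in the edgeR fit, 10 of 77 members had an unadjusted p under 0.05, against 7.04% of all genes. That fit called 42 genes and 0 members. The lack of calls therefore does not show that the levels were equal. Between vehicle control and Nap only, 39 of 76 members were called lower and 0 higher (median −0.24), against 11.2% lower and 12.7% higher over all genes. At an unadjusted p under 0.05, 52 were lower and 1 was higher, and DESeq2 called 25 lower and 0 higher. With the length and GC correction, 20 of the 39 calls were kept. The edgeR count fell to 19 without vehicle control replicate 2 and to 18 without Nap only replicate 1. The vehicle control libraries are shared by both comparisons.

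P4 cultures were next compared with vehicle controls. A difference in P4 and a possible difference in ethanol cannot be told apart in this comparison. Here the members divided. Of 76 tested, 16 were called higher (21.1%) and 21 lower (27.6%), and 39 were not called. At an unadjusted p under 0.05, 16 were higher and 26 lower. DESeq2 called 15 higher and 15 lower, so the larger number of lower calls depended on the tool. Over all 16540 genes tested, 26.6% were called higher and 26.5% lower, so the members' shares were near those of the transcriptome. The median log2 fold change was −0.074, against −0.013 for all genes. Groups did not overlap in 22 members that were higher (28.9%) and 25 that were lower (32.9%), against 30.7% and 29.6% of all genes. Summed levels were 2429, 2465 and 2457 CPM in P4 cultures, 96.8% of the vehicle control mean. Upper-quartile normalization moved the median of all genes to −0.10 and the split of members to 15 higher and 31 lower. Leaving out P4 replicate 3 reduced the lower calls to 13.

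**Figure D3:**
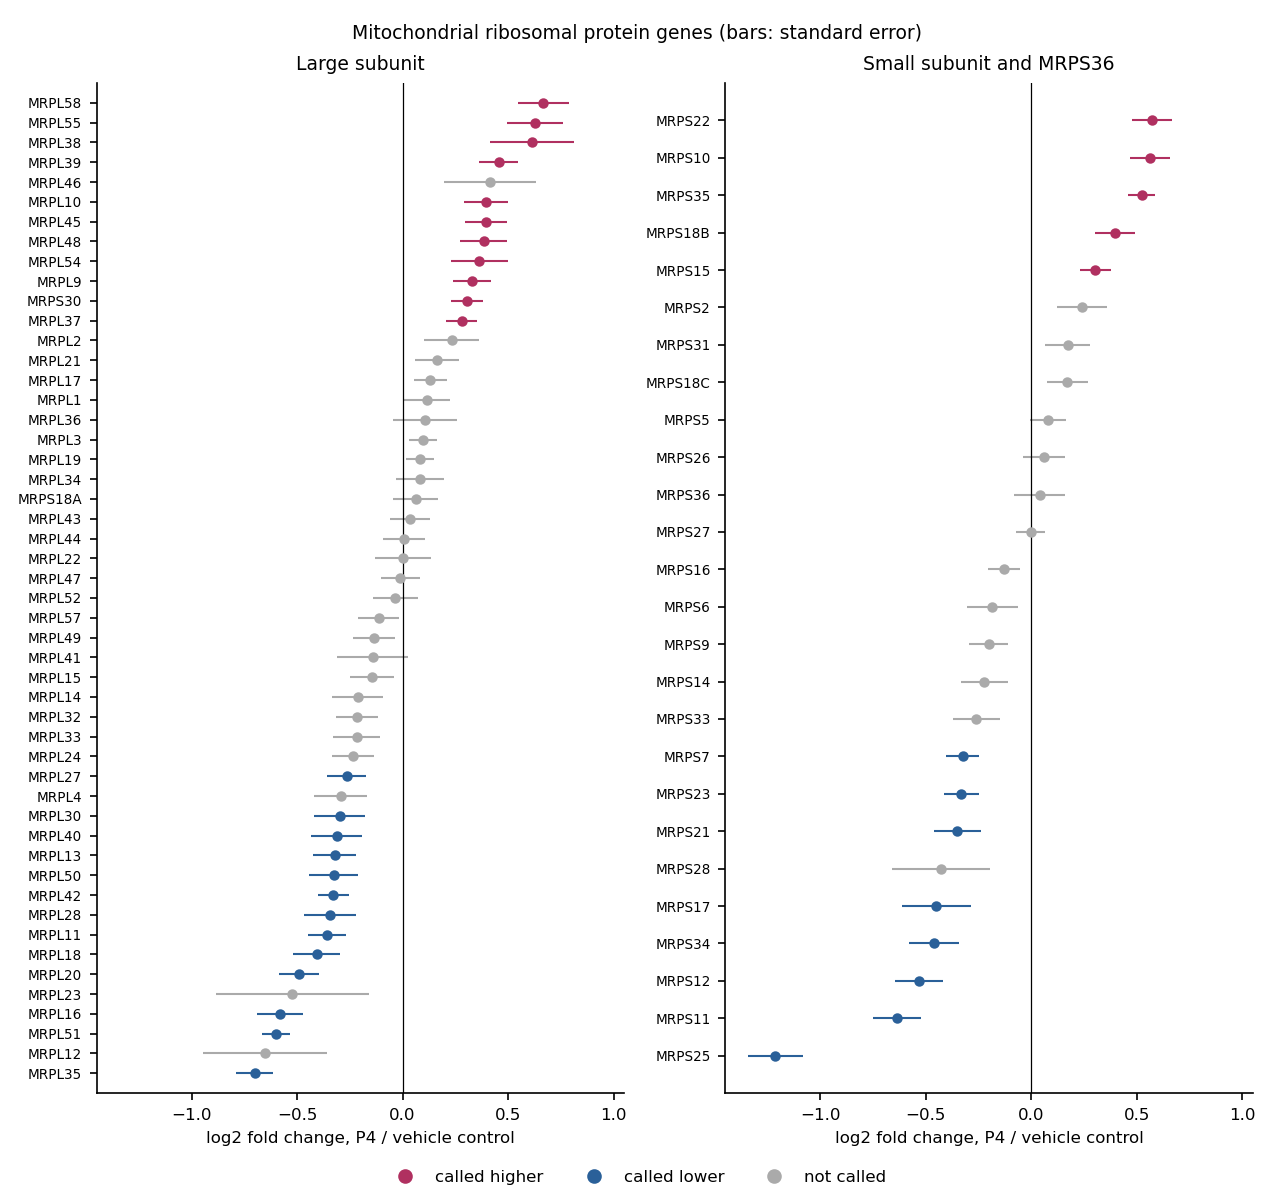
Log2 fold change between P4 and vehicle control of each of the 76 tested genes, with its standard error (bar), ordered within the large subunit (left) and the small subunit with MRPS36 (right). Red points were called higher, blue points called lower and grey points not called. The values run from −1.21 in MRPS25 to 0.67 in MRPL58, and MRPS25 is the only gene beyond 1 log2 unit in either direction.

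MRPS25 (chr3:15042460-15065335, GRCh38, minus strand), a mitochondria-specific protein of the small subunit, fell the most. It had 52.7, 45.1 and 45.02 CPM in vehicle controls and 24.8, 16.4 and 20.5 CPM in P4 cultures. Every P4 culture lay far below every vehicle control, and the log2 fold change was −1.21 ± 0.13 (SE, n = 3 each; adjusted p = 1.03e-05, edgeR). Controls had 57.7, 42.8 and 46.8 CPM and Nap only cultures 60.05 and 47.8 CPM. In contrast to most members, MRPS25 did not pass the test between vehicle control and control (−0.060 ± 0.10, adjusted p = 0.705), and its vehicle control and control values overlapped.

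The large-subunit protein MRPL35 (chr2:86199355-86213794) stood at 44.1, 44.5 and 43.6 CPM in vehicle controls and 29.1, 25.02 and 28.02 CPM in P4 cultures, a log2 fold change of −0.70 ± 0.087 (adjusted p = 3.17e-05). Control and Nap only cultures were higher than both, at 56.9, 56.7 and 61.7 CPM and 59.1 and 59.6 CPM, so that its levels formed 3 steps. The most abundant member, MRPL51 (chr12:6491886-6493841), showed the same order. It had 122, 143 and 118 CPM in controls, 100.1, 95.7 and 95.8 CPM in vehicle controls and 65.6, 65.3 and 62.7 CPM in P4 cultures, and fell by 0.60 ± 0.066 on the log2 scale between the last groups (adjusted p = 1.22e-05). MRPL16 reached 13.8, 13.1 and 15.04 CPM with P4, against 19.4, 22.3 and 20.1 CPM with vehicle (−0.58 ± 0.11, adjusted p = 7.24e-04). Each of these 3 genes had no overlap between control, vehicle control and P4 cultures.

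**Figure D4:**
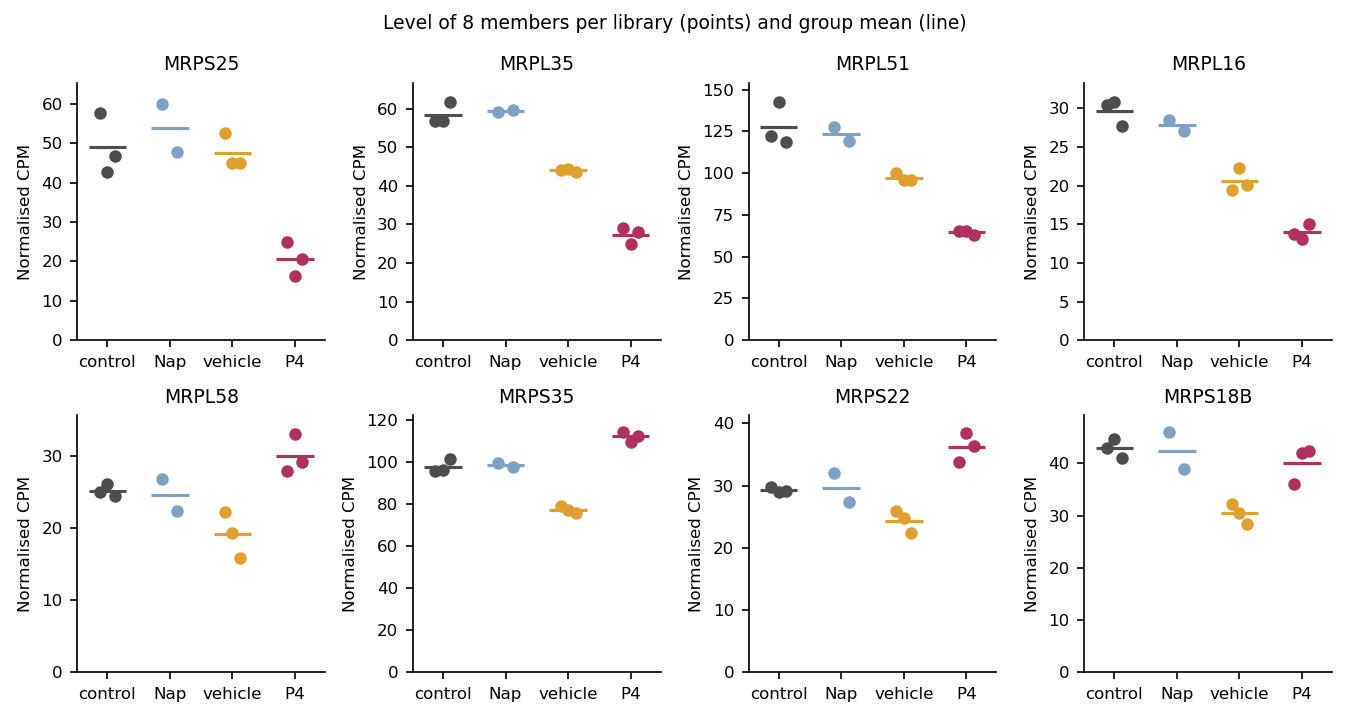
Normalised CPM of 8 members in each library (points) and the group mean (line) for control, Nap only, vehicle control and P4 cultures. In the upper row MRPS25 is low with P4 alone, while MRPL35, MRPL51 and MRPL16 step down from control to vehicle control to P4. In the lower row MRPL58, MRPS35, MRPS22 and MRPS18B dip in vehicle control and are higher in every P4 library than in every vehicle control library.

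Further small-subunit proteins with bacterial counterparts fell. MRPS11, of the platform, had 25.3, 27.6 and 26.3 CPM in vehicle controls and 18.7, 18.6 and 14.7 CPM in P4 cultures (−0.63 ± 0.11, adjusted p = 5.11e-04). MRPS12, whose bacterial counterpart helps to check decoding, had 14.2, 14.8 and 13.9 CPM and 10.3, 9.89 and 9.85 CPM (−0.53 ± 0.11, adjusted p = 0.00191). For the large-subunit protein MRPL20 the values were 46.97, 48.1 and 47.5 CPM and 29.8, 33.5 and 38.9 CPM (−0.49 ± 0.097, adjusted p = 0.00100). The groups were apart in all 3. MRPS34, a mitochondria-specific small-subunit protein, had 32.02, 33.5 and 25.4 CPM and 20.01, 22.4 and 23.9 CPM (−0.46 ± 0.12, adjusted p = 0.00602), and its adjusted p was 0.0522 without vehicle control replicate 2. The other 13 members called lower lay between −0.45 for MRPS17 and −0.27 for MRPL27. These 2 genes are named only as the ends of that range.

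Among the members that rose, MRPL58 (chr17:75012670-75021261, GRCh38, plus strand) had the largest change. It encodes a peptidyl-tRNA hydrolase that became part of the large subunit and can rescue stalled ribosomes. Its levels were 22.2, 19.3 and 15.9 CPM in vehicle controls and 27.9, 33.1 and 29.2 CPM in P4 cultures. All P4 cultures exceeded all vehicle controls, and the log2 fold change was 0.67 ± 0.12 (adjusted p = 6.02e-04). Controls lay between, at 24.4 to 26.1 CPM, and P4 cultures were not called different from them (0.23, adjusted p = 0.0748).

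MRPL55, a large-subunit protein, had 10.7, 12.8 and 12.6 CPM in vehicle controls and 15.9, 21.6 and 19.6 CPM in P4 cultures (0.63 ± 0.13, adjusted p = 0.00163). MRPL38, of the central protuberance, was scarce, at 4.03, 3.76 and 3.70 CPM and 5.39, 7.31 and 4.96 CPM (0.61 ± 0.20, adjusted p = 0.0201). Its call was lost without vehicle control replicate 2 or 3 (adjusted p = 0.0708 and 0.0738) or without P4 replicate 2 (0.0779), and 37.5% of its exons are shared with AC087289.3 on the same strand. The large-subunit protein MRPL39 had 18.4, 19.7 and 20.6 CPM in vehicle controls and 27.3 CPM in each P4 culture (0.45 ± 0.092, adjusted p = 0.00123). Vehicle control and P4 values did not overlap in any of these 3 genes.

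In the small subunit, MRPS22 rose from 25.9, 24.8 and 22.3 CPM to 33.8, 38.5 and 36.4 CPM (0.57 ± 0.094, adjusted p = 2.80e-04). MRPS10, which has a bacterial counterpart, rose from 31.8, 32.5 and 33.5 CPM to 54.4, 47.4 and 44.8 CPM (0.56 ± 0.093, adjusted p = 2.88e-04). MRPS35, the second most abundant member, rose from 78.98, 77.03 and 75.8 CPM to 114, 109.5 and 112 CPM (0.52 ± 0.064, adjusted p = 2.79e-05). P4 cultures of these 3 genes exceeded not only the vehicle controls but also every control, which had at most 29.8, 43.8 and 101 CPM. MRPS18B rose from 32.2, 30.5 and 28.4 CPM to 36.1, 41.95 and 42.3 CPM (0.40 ± 0.093, adjusted p = 0.00324), against 40.9 to 44.6 CPM in controls. Its paralogues did not pass the test, with 0.17 for MRPS18C and 0.062 for MRPS18A, nor did MRPS36 (0.040). MRPS30 was called higher (0.31, adjusted p = 0.00472).

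The directions were spread over both subunits and both evolutionary classes. Large-subunit genes gave 11 higher and 13 lower of 50, and small-subunit genes 5 higher and 8 lower of 25. Mitochondria-specific proteins gave 11 higher (36.7%) and 7 lower (23.3%) of 30, with a median of 0.050. Proteins with a bacterial counterpart gave 5 higher (11.1%) and 14 lower (31.1%) of 45, with a median of −0.21. Over all genes tested, 26.6% were higher and 26.5% lower, so the lower shares of both classes were near that of all genes. DESeq2 called 10 higher and 6 lower in the first class and 5 higher and 9 lower in the second. This difference between the classes was not tested. The YY1 motif stood in 5 of 15 windows of members that rose (33.3%) and 6 of 19 of those that fell (31.6%), and the ETS motif in 6 of 15 and 11 of 19 (57.9%). Of 83 cytosolic ribosomal protein genes, 36 were called higher and 4 lower (median 0.15), and their summed level came to 96.6% of the control mean with P4, against 79.4% for the mitochondrial ones.

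**Figure D5:**
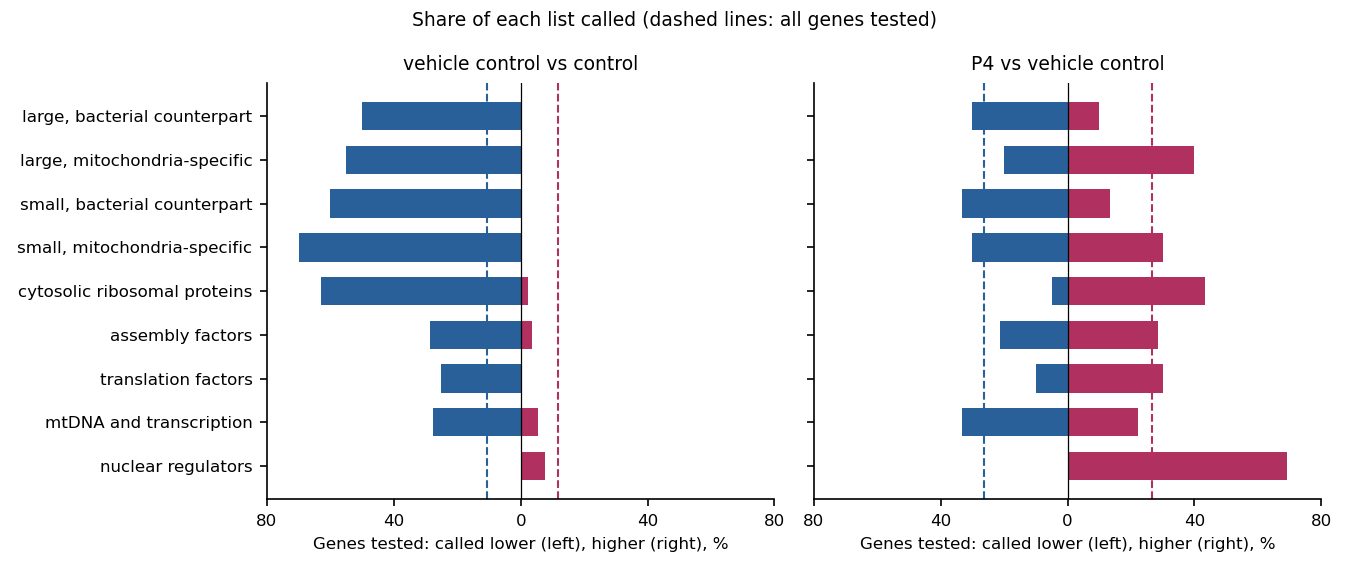
Share of the tested genes of each list called lower (left, blue) and higher (right, red) in vehicle control against control and in P4 against vehicle control, with the share of all genes tested as dashed lines. In vehicle control, 50.0% to 70.0% of each structural class of mitochondrial ribosomal proteins was called lower. With P4 the classes have calls in both directions, and the nuclear regulators have calls in the higher direction alone. The list of regulators was drawn up with earlier results of these data known, so its share is a description only.

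Against controls, P4 cultures were lower in 41 of 76 members (53.9%) and higher in 1, MRPS22 (0.28, adjusted p = 0.0231). Over all 16620 genes tested, 28.0% were lower and 26.8% higher. The members' median was −0.36, against −0.018 for all genes. In 47 members (61.8%) the P4 cultures lay wholly below the controls and in 5 (6.58%) wholly above, against 30.1% and 31.0% of all genes. The 21 members that were lower than in vehicle controls had a median of −0.72 against controls and all 21 were called lower. The 16 that were higher than in vehicle controls had a median of 0.13 against controls, where 1 was called higher and 0 lower. The comparisons share the P4 libraries, and both sets were chosen by their P4 values. Between vehicle control and control, the 21 already had a median of −0.29 and the 16 a median of −0.30. Their counts against controls therefore follow in part from that choice and are no separate evidence. The count of members higher than in controls was 0 without control replicate 1, P4 replicate 2 or P4 replicate 3, 2 without control replicate 2 and 4 without P4 replicate 1.

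With Nap only cultures as the reference, 35 of 77 members were called lower and 1 higher. The one that rose was MRPL55 (0.42, adjusted p = 0.0324), a gene DESeq2 did not call, and the call was lost without Nap only replicate 1 or 2 or P4 replicate 2 or 3 (0 higher in each). All 16987 genes tested gave 24.9% lower and 24.8% higher. The median of the members was −0.36, against −0.013. MRPS25 fell by 1.42 ± 0.16 on the log2 scale here (adjusted p = 2.89e-05), and MRPL35 by 1.15 ± 0.10 (adjusted p = 6.96e-06). There were 2 reference cultures, whose summed levels differed by more than those of the 3 controls.

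Epithelial markers moved with P4 as well. Of the 5, KRT8, KRT18 and KRT19 were called lower and CDH1 higher against vehicle control, and their summed level was 929 to 1080 CPM with P4, 1171 to 1174 CPM in vehicle controls and 1155 to 1370 CPM in controls. Of the 3 stromal markers tested, 2 were called lower with P4, and the summed stromal level was 66.0 to 76.3 CPM with P4, 69.6 to 91.7 CPM in vehicle controls and 92.0 to 157 CPM in controls. Between vehicle control and control, 1 of the 5 epithelial markers, EPCAM, was called lower, and 0 of the 3 stromal markers were called by edgeR or DESeq2, with 1 higher at an unadjusted p under 0.05. The summed endothelial level was 0.172 to 0.382 CPM with P4, 0.443 to 1.047 CPM in vehicle controls and 1.13 to 1.49 CPM in controls, and VWF, the one endothelial marker tested, was called lower with P4 against control (−2.26, adjusted p = 1.91e-04) and against Nap only (−2.45, adjusted p = 8.35e-04) and was too low to be tested against vehicle control. The part of these markers in the members' differences was not tested, and in these bulk cultures fewer cells and less RNA per cell cannot be told apart.

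Of the 5 proteins of the mitochondrial ribosome that have other names, 2 were called higher and 1 lower with P4 against vehicle control. DAP3, a GTP-binding protein of the small subunit, had 74.4, 74.2 and 76.7 CPM in vehicle controls and 87.6, 92.1 and 93.1 CPM in P4 cultures (0.26 ± 0.065, adjusted p = 0.00480). PTCD3, a pentatricopeptide repeat protein of the small subunit, had 120.2, 108 and 112 CPM and 132, 135 and 127 CPM (0.21 ± 0.066, adjusted p = 0.0198), and its call was lost under upper-quartile normalization (adjusted p = 0.145) and without vehicle control replicate 2 or 3 (0.122 and 0.0863). CHCHD1, a small-subunit protein, was lower at −0.47 ± 0.17 (adjusted p = 0.0380), a call that was lost without any 1 of the vehicle controls (adjusted p = 0.0518 to 0.213) or without P4 replicate 2 or 3 (0.104 and 0.105). AURKAIP1 at −0.25 and GADD45GIP1, near the exit of the large subunit, at −0.25 did not pass the test. In vehicle control against control all 5 were negative, and CHCHD1 and GADD45GIP1 were called lower.

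Of 28 factors of mitochondrial ribosome assembly tested, 8 were called higher (28.6%) and 6 lower (21.4%) with P4 against vehicle control, near the 26.6% and 26.5% of all genes. FASTKD5, which takes part in processing mitochondrial precursor RNA, fell from 25.9, 25.8 and 26.9 CPM to 16.1, 12.6 and 12.9 CPM (−0.94 ± 0.11, adjusted p = 2.58e-05). MTG1, a GTPase of large-subunit assembly, had 10.1, 9.41 and 9.60 CPM in controls, 14.95, 15.1 and 16.2 CPM in vehicle controls and 9.72, 8.68 and 9.47 CPM in P4 cultures, and so was high in vehicle controls alone. RMND1, which is thought to hold the ribosome at the inner membrane, rose from 20.3, 18.4 and 18.4 CPM to 28.6, 34.6 and 32.5 CPM (0.75 ± 0.10, adjusted p = 6.30e-05). GTPBP10, another GTPase of large-subunit assembly, rose by 0.39 ± 0.084 on the log2 scale (adjusted p = 0.00186).

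Of 20 translation factors and mRNA-handling proteins, 6 were called higher and 2 lower, against 26.6% and 26.5% of all genes. LRPPRC and SLIRP, the partners of a complex that stabilizes mitochondrial mRNA, went in opposite directions. LRPPRC had 315, 310.1 and 311 CPM in vehicle controls and 446, 487 and 469.5 CPM in P4 cultures (0.57 ± 0.059, adjusted p = 7.40e-06). SLIRP had 32.2, 34.8 and 34.4 CPM and 26.3, 23.8 and 27.3 CPM (−0.41 ± 0.091, adjusted p = 0.00221). The initiation factor MTIF2 rose by 0.69 ± 0.073 (adjusted p = 8.61e-06), and GFM2, which recycles ribosomes, was lower at −0.23 (adjusted p = 0.0354), without a call in DESeq2 (adjusted p = 0.0878), with no filter on low counts (0.109) or without vehicle control or P4 replicate 2 or 3 (0.0900 to 0.161).

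Of 18 genes of mitochondrial transcription and DNA maintenance, 4 were called higher (22.2%) and 6 lower (33.3%), against the same shares of all genes. The helicase gene SUPV3L1, of the RNA-degrading complex, rose by 0.99 ± 0.12 (adjusted p = 3.44e-05), and the topoisomerase gene TOP1MT rose by 0.55. Genes for a pair of subunits of mitochondrial RNase P fell. KIAA0391, its nuclease, went from 13.4, 11.7 and 11.6 CPM to 5.77, 5.67 and 4.58 CPM (−1.19 ± 0.15, adjusted p = 3.26e-05), and HSD17B10 from 42.9, 44.3 and 45.98 CPM to 31.4, 30.2 and 30.1 CPM (−0.56 ± 0.081, adjusted p = 1.02e-04).

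A list of 13 nuclear regulators held ATF4, ATF5, DDIT3, ESRRA, GABPA, GABPB1, GABPB2, MYC, NRF1, PPARGC1A, PPARGC1B, PPRC1 and YY1. Since it was drawn up with earlier results of these data known, its count is a description of these genes and no evidence on regulators as a group. Of the 13, 9 were called higher (69.2%) and 0 lower, in edgeR and in DESeq2, against 26.6% and 26.5% of all genes, and at an unadjusted p under 0.05 the counts were 10 and 0. PPARGC1A, a coactivator of mitochondrial biogenesis, had 16.9, 12.4 and 14.4 CPM in controls, 16.7, 13.9 and 15.7 CPM in vehicle controls and 49.7, 54.8 and 53.3 CPM in P4 cultures (1.77 ± 0.095, adjusted p = 3.89e-08). DDIT3, a transcription factor of stress responses, had 5.98, 8.27 and 6.99 CPM, 12.7, 14.8 and 12.97 CPM and 159, 259.8 and 220.5 CPM (3.95 ± 0.18, adjusted p = 1.37e-07). Both were higher in every P4 library than in any library of the other groups.

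The ribosomal RNAs of the mitochondrial ribosome were counted in the same libraries. MT-RNR1, of the small subunit, took 0.685 ± 0.0908% of all counts in controls, 0.609% and 0.624% in Nap only cultures, 1.37 ± 0.205% in vehicle controls and 1.14 ± 0.215% in P4 cultures (mean ± SD, n = 3). Its share was thus higher in every vehicle control and P4 culture, at 0.963% or more, than in any control, at 0.778% or less. MT-RNR2, of the large subunit, took 23.0 ± 3.63%, 21.4% and 22.4%, 24.0 ± 0.605% and 24.6 ± 0.580% in the same order, and its ranges overlapped between controls and the other groups. The sources used here do not say how ribosomal RNA was removed, and its part in these shares was not tested. With the mitochondrial genome left out of the normalization, 42 of the 43 lower calls between vehicle control and control were kept.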

How the data were processed

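Total RNA of 17 Ishikawa cell cultures was sequenced as stranded single-end libraries. The authors trimmed reads with Cutadapt, filtered them by quality, kept unique Subread alignments and deposited raw counts per gene from featureCounts with GENCODE 31. Versions, the build and the strand setting are not given in the sources used here. Names and positions came from GENCODE 29 (GRCh38), which held 58577 of 60662 gene IDs. Another 2064 were named from a name table and 21 stayed unnamed.

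Counts were tested with edgeR 4.0.16 in R 4.3.3 (TMM, filterByExpr with a minimum count of 10, robust quasi-likelihood test, Benjamini-Hochberg over all genes tested, called under 0.05), fitting the groups compared. DESeq2 1.42.0 served as an alternative, and the scripts were tested on simulated data. Levels are TMM-normalised CPM over all 17 libraries, and RPKM divides these by GENCODE 29 exon length. Genes were named by rule: the 8 largest changes each way with P4 among members called, any beyond 1 log2 unit, the 3 highest and 3 lowest levels, untested members, the 3 smallest adjusted p for vehicle control, and a fixed set. In each related list, the 2 called genes of smallest adjusted p each way in P4 against vehicle control were named. MRPL12, MRPS17 and MRPL27 were named after their values were seen. Members and lists were chosen with earlier results of these data known. The comparisons of Nap only with vehicle control and with control, and the correction for length and GC content, were added after seeing the data. The 6 libraries whose titles and column names contradict each other on P4 entered no comparison. Replicate numbers did not pair the samples across all groups, and the main fit held no replicate block. Deviations of same-numbered libraries correlated at −0.0896 to 0.335 over 15657 genes, and those of other libraries at −0.335 to 0.0981. Control and Nap only cultures were an exception. There, same-numbered libraries correlated at 0.283 and 0.335, against −0.335 to 0.0936 for the others. The deviations of the 2 Nap only libraries from their mean mirror each other, so the −0.335 is the 0.335 with its sign reversed. This contrast is thus partly fixed by the calculation.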

Additional observations from a re-analysis of the deposited data

Results flagged for a closer look

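One library outside the comparisons is listed because its value was above that of every control library. The first of the 3 libraries whose column is named PSAT1 alone, but whose title and treatment contradict that name on P4, had a summed level of the mitochondrial ribosomal protein genes of 3097 CPM. The highest control library was at 3095 CPM. The gap is small beside the spread of the 3 controls (SD 14.2 CPM), the value lies below that of a Nap only library (3175 CPM), and the difference was not tested.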

How the results depend on the processing

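The lower level in vehicle control against control (43 members) kept its direction under every alternative run, with 25 to 41 lower when 1 library was left out and 1 member called higher with a replicate block. For P4 against vehicle control, calls without 1 library ranged from 13 to 18 higher and 13 to 26 lower, and the median (−0.074) was −0.16 under upper-quartile normalization, −3.3e-05 with no filter and −0.019 with all 4 groups in the fit. For P4 against control, the 1 member called higher became 2 under RLE normalization, 0 under upper-quartile normalization, 2 without the mitochondrial genome, 0 with no filter, 6 with all 4 groups, 5 with the length and GC correction, 2 with a replicate block, and 0 to 4 without 1 library. For P4 against Nap only, it became 0 in DESeq2, 0 under upper-quartile normalization, 3 with all 4 groups, 4 with the length and GC correction, 0 with a replicate block and 0 to 4 without 1 library. Its median was −0.44 under upper-quartile normalization, −0.30 with a replicate block, −0.30 with the length and GC correction and −0.34 to −0.24 without 1 library. For vehicle control against Nap only, the 39 lower calls became 25 in DESeq2, 22 with all 4 groups and 18 to 45 without 1 library, 1 member was called higher among protein-coding genes only and 1 with at least 10 counts in every sample, and the median ran from −0.35 to −0.22 without 1 library. MRPS18A, not called for P4 against vehicle control, turned to −0.025 under upper-quartile normalization, and MRPS36 to −0.047 there, −0.061 with the length and GC correction and −0.055 to 0.11 without 1 library. Of the settings of named genes, 628 kept side and direction, 18 in 5 genes lost the call and 5 in 2 genes gained it. The causes were not tested. With a replicate block, P4 against vehicle control gave 16 higher and 22 lower. Same-numbered libraries of these groups correlated at −0.0435 to 0.0485, against −0.0852 to 0.0616 for the others. Vehicle control replicate 1, at 4999521 counts, limits the precision for low members such as MRPL12.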

Other observations

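The 6 libraries without a usable label are given as values. All are labelled with recombinant PSAT1, and their titles and column names contradict each other on P4. In the 3 with columns named PSAT1_P4, the summed level of the mitochondrial ribosomal protein genes was 2524, 2498 and 2416 CPM, and in the 3 with columns named PSAT1 it was 3097, 2767 and 2970 CPM, so the values of the column names did not overlap. The small-subunit gene MRPS25 had 21.8, 21.5 and 18.2 CPM in the former and 58.9, 53.5 and 56.7 CPM in the latter. MRPL35, of the large subunit, had 28.5, 28.4 and 23.0 CPM and 59.3, 52.5 and 55.5 CPM, and the ribosome rescue factor MRPL58 had 28.3, 32.5 and 31.9 CPM and 26.7, 19.6 and 23.8 CPM. No group was assigned from these values.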
